A study of Drosophila melanogaster with 4 samples.

Results

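The region of the gene br (broad) on the X chromosome held 39 of the 4389 Abd-B-GFP peaks in the deposited list. Its members were the peaks on X whose midpoint lay between 1450000 and 1560000 on FlyBase release 5. The region was chosen by the positions of its peaks, as the most crowded stretch of the list, so its peak number, its covered share and its short gaps are given below as a description, with no test. Its name comes from the rule that set these bounds, and no release 5 gene model was used here to place br within it. In the release 6 gene table used here for names and gene order only, br lies inside the span of the gene Mur2B, and the next genes on X are the small RNA gene sncRNA:400 on the lower-coordinate side and dor on the other.

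The data are a chromatin immunoprecipitation and sequencing (ChIP-seq) experiment on wandering L3 larvae of Drosophila melanogaster, the last larval stage before metamorphosis. All 4 libraries, 2 of immunoprecipitated DNA (ChIP) and 2 of input DNA, share the strain Abd-B-GFP, the genotype w; PBac{y[+]-attP-3B}VK00037 and a transgene with the Abd-B genomic coding region, in which GFP takes the place of the stop codon. The antibody was the rabbit polyclonal GFP ab290, the sex of the larvae is given as unknown, and the protocol text names another stock (y; bw cn sp) than the characteristics do. The libraries are merged into 1 peak list, so no value below has a replicate error, the agreement of the ChIP libraries could not be measured, and the depth is unknown. The labels give the fusion as a transgene, whole animals mix tissues with and without Abd-B, and no library from larvae without the transgene was analysed here. No value in the list checks that the tagged protein was made.

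Abd-B is a homeodomain protein of the bithorax complex that specifies the posterior abdominal segments and the genital disc. Broad is a family of transcription factors made from 1 gene by alternative splicing, which share a BTB domain and differ in their zinc fingers. br is an early gene of the response to the steroid hormone ecdysone: the hormone receptor activates it directly at the end of larval life, its locus forms an early puff on the polytene X chromosome of the salivary gland, and its products then activate late genes and are needed for metamorphosis.

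The 39 peaks formed an island along the chromosome. They ran from 1454968 to 1543153, a span of 88.2 kb, and covered 26428 bp, or 29.97% of that span. The first peak inside the bounds, at 1454968 to 1455291, scored 10.49, and 37002 bp without a peak separated it from the nearest peak outside, at 1417524 to 1417965 with a score of 9.66. The last peak inside, at 1542941 to 1543153, scored 8.13, and the next one outside, at 1563612 to 1563932 with a score of 11.25, followed after 20458 bp. Inside the island the longest gap was 8522 bp. The right-hand outside peak lay only 3.77 kb beyond the bound, so the bounds could have taken in 1 more peak, and the left-hand one lay 32.3 kb beyond.

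A pair of dense stretches with a sparse one between them made up most of the island. In steps of 10 kb from the left bound, the first 3 steps held 4, 6 and 4 peaks and were covered to 25.3%, 50.7% and 31.1%. The next 2 steps held 3 and 2 peaks and were covered to 8.49% and 6.79%. The sixth and seventh steps held 5 and 7 peaks and were covered to 60.8% and 50.4%. The remaining steps held 2, 4, 2 and 0 peaks. Peaks were thus found in 10 of the 11 steps, and the last step was empty.

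**Figure D1:**
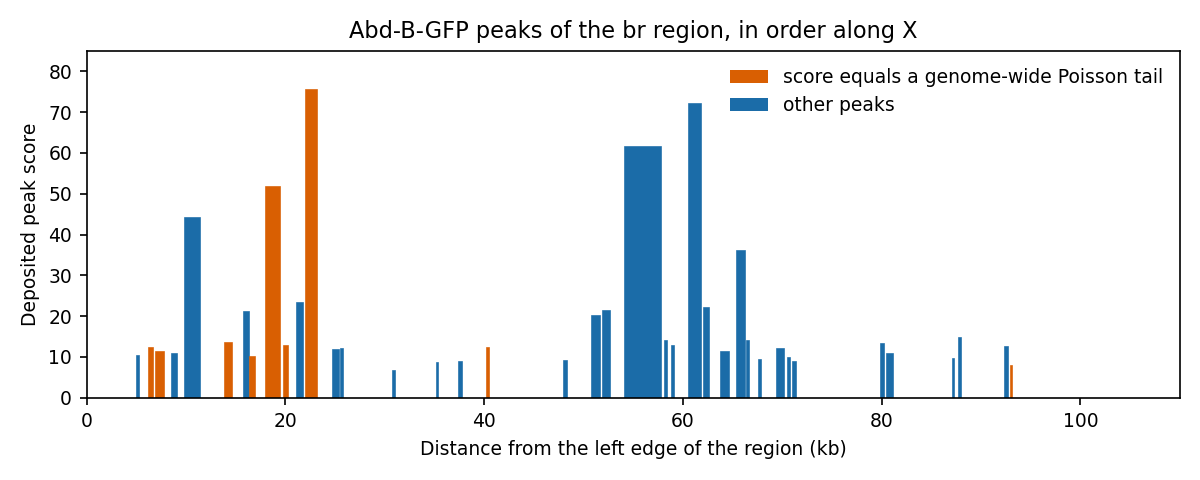
Peaks of the br region in order along X. Each bar is 1 peak, with its width to scale on the x axis (kb from the left bound) and the deposited score as its height; orange bars have a score equal to a Poisson tail of the genome-wide background. The 5 tallest peaks, with scores of 44.33 to 75.69, stand in 2 groups, and most other peaks stay below 15.

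Where gaps of up to 5 kb were allowed, the island fell into 4 runs. The first, at 1454968 to 1490464, contained 18 peaks (median score 12.29, median width 543 bp), and 33.4% of its span was covered. The second, at 1497945 to 1521346, contained 15 peaks (median score 14.08, median width 627 bp), and 52.5% of its span was covered. The other 2 runs, of 2 and 4 peaks, lay to the right and reached no score above 14.85. Elsewhere on X the largest of 419 such runs, single peaks included, held 7 peaks.

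The score is the value that the authors' peak caller gave to each peak, and the file does not define it. From its values it looks like −log10 of a Poisson p-value, which grows with depth and with enrichment alike. The highest score of the region, 75.69, belonged to the peak at 1471934 to 1473144, which was 1211 bp wide, and ranked only 56 among the 672 peaks of X. The next, 72.27, belonged to the peak at 1510481 to 1511861, which was 1381 bp wide. A score of 61.79 belonged to the peak at 1504034 to 1507759, which at 3726 bp was the widest of the whole list. The peaks at 1467950 to 1469434 (1485 bp wide) and 1459756 to 1461437 (1682 bp wide) had scores of 51.77 and 44.33. These 5 peaks were also the 5 widest of the region and together held 9485 bp, or 35.9% of its covered bases.

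The 5 strongest peaks did not stand next to each other. Their midpoints followed at 8.10, 3.85, 33.4 and 5.27 kb, with 3 of them in the left-hand dense stretch and 2 in the right-hand one. Each had a weaker peak on both sides, with scores from 10.29 to 23.37, and the nearer of these lay 163 to 690 bp away. The sixth score of the region, 36.10, belonged to the peak at 1515366 to 1516268, which was 903 bp wide.

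The remaining peaks were mostly weak. Of the 39 scores, 28 were below 15, 6 lay between 15 and 40, and 0 exceeded 100, a level that 34 of the other 633 peaks of X (5.37%) passed. The lowest were 6.84 at 1480681 to 1480989, 8.13 at 1542941 to 1543153 and 8.85 at 1485150 to 1485363. The 6.84 and the 8.85 lay in the sparse stretch between the dense ones, where the highest of the peaks from 1480681 to 1498323 had a score of 12.35. The 6 peaks to the right of the second run had scores from 8.13 to 14.85 and widths from 213 to 721 bp.

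Gaps between neighbouring peaks were short throughout. The median of the 38 gaps was 861 bp (95% interval of the median 361 to 1391 bp, from order statistics, which covers the spread between peaks only), whereas the 632 other gaps of X had a median of 11486 bp (9675 to 13431 bp). Gaps under 1 kb numbered 21 of 38 (55.3%), and among the other gaps of X they made up 15.5%; since crowding chose the region, nothing is read from this difference. The 3 shortest gaps were 64 bp before the peak at 1516333 to 1516677, 89 bp before the peak at 1466375 to 1466899 and 92 bp before the peak at 1475481 to 1475822. The 3 longest were 8522, 7480 and 5881 bp, before the peaks at 1529869, 1497945 and 1537057.

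When gaps under 1 kb were bridged, the 39 peaks became 18 blocks, of which 12 held 2 or more peaks. The largest block had 5 peaks and ran from 1454968 to 1461437. Blocks of 4 peaks ran from 1467950 to 1473144 and from 1513729 to 1517814, the former with scores up to 75.69 and 72.6% of its span covered. The block with the widest peak ran from 1504034 to 1509089, held 3 peaks and was covered to 86.2%. Outside the region no block of X had more than 3 peaks.

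Against windows of the same size, 110 kb, laid end to end along X on both sides, the region stood apart in number and coverage. The other 200 windows held 3.15 ± 2.69 peaks (SD over windows) with a maximum of 12, and 40 of them were empty. The windows that adjoined the region held 5 and 4 peaks. The region held 5.80% of the peaks of X and 6.40% of the bases under them, and 24.0% of its length was covered, against a median of 1.30% and a maximum of 7.96% in the other windows. The next windows on X were 12560001 to 12670000 with 12 peaks, 2110001 to 2220000 with 11 and 1780001 to 1890000 with 10. Their median gaps were 1546, 3671 and 8615 bp. A median gap shorter than that of the region was found in 1 of the 53 other windows with 5 or more peaks.

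**Figure D2:**
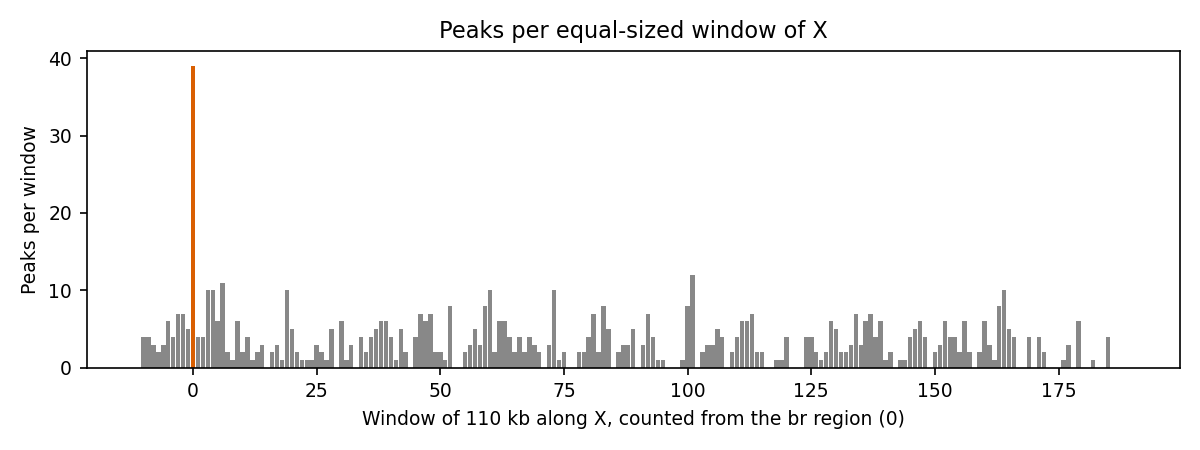
Peaks per window of 110 kb along X, with windows counted from the br region (0, orange). The region holds 39 peaks, and the other 200 windows hold 0 to 12.

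On the other major arms, the fullest windows held 25 peaks on 3R (11990001 to 12100000), 21 on 3L (17490001 to 17600000), 19 on 2R (13640001 to 13750000) and 14 on 2L (14410001 to 14520000). They were covered to 14.8%, 10.3%, 10.0% and 5.09%. Median gaps were 1440, 998.5, 2246 and 3659 bp in the same order, each longer than the 861 bp of the br region. Among the 340 other windows of the 5 major arms with 5 or more peaks, 14 had a shorter median gap than the region and 1 the same.

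The lead of the br region in peak number shrank when weak peaks were left out. Scores at or above 15.46, the median of the whole list, were reached by 11 of the 39 peaks (28.2%, exact 95% binomial interval 15.0 to 44.9%), whereas 57% of the other 633 peaks of X reached it. Counting only such peaks, the region held 11, the fullest other window of X laid end to end held 10 and the fullest window of the other major arms held 14. These counts depend on where the windows start. A peak with a score of 127.37, at 12547654 to 12548783, lay just outside the window of X from 12560001 to 12670000. A window of 110 kb shifted to take it in holds as many such peaks as the region. Bridging gaps under 1 kb, whatever the score, left the region with 18 blocks, still the most, with at most 10 in another window of X and 16 on the other arms. Scores of 40 or more were reached by 5 of the 39 peaks (12.8%, 4.30 to 27.4%), and by 21.2% of the other peaks of X. Both intervals treat neighbouring peaks as independent, which they are not, so they are too narrow.

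The median score of the region was 12.35 (95% interval of the median 11.06 to 14.13), and that of the other 633 peaks of X was 17.53 (16.13 to 18.72). These intervals did not overlap, but neighbouring peaks are not independent, so they are too narrow by an unknown amount. Among the 53 other windows of X with 5 or more peaks, 48 had a higher median score. Crowded windows of the other arms were closer: the fullest windows of 3R, 3L, 2R and 2L had median scores of 16.38, 13.31, 13.60 and 10.95, and the 81 other windows of the 5 major arms with 10 or more peaks had a median of 13.88 over their median scores. On X, the highest score of the region was in the middle of the 53 windows, with 26 above it and 27 below it. Over the 340 windows of the 5 major arms with 5 or more peaks, 106 had a higher maximum and 234 a lower one. Widths were in the middle on X: the median was 525 bp (335 to 728 bp) in the region and 476 bp (454 to 511 bp) in the other peaks of X. The other peaks of the 5 major arms had a median width of 415 bp (406 to 426 bp). Of the same 340 windows, 87 had a wider median and 252 a narrower one. A width of 1000 bp or more was reached by 5 of 39 peaks (12.8%), and by 14.4% of the other peaks of X.

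The scores of the region were low for the width of its peaks, most of all between 500 and 1000 bp. In the region, 10 peaks were at least 500 and under 800 bp wide and had a median score of 12.33, whereas the 158 other peaks of X in this range had a median of 25.40 (95% interval 21.91 to 28.46). From 800 to under 1000 bp the medians were 13.60 over 5 peaks and 37.24 (30.24 to 46.06) over 52, and only 1 of the 52 scored below 13.60. From 300 to under 500 bp they were 12.29 over 14 peaks and 15.06 (13.94 to 15.79) over 191. At the extremes the sets were closer: below 300 bp the medians were 9.52 over 5 peaks and 10.57 (9.97 to 11.15) over 141, and from 1000 bp they were 61.79 over 5 and 67.64 (55.51 to 88.14) over 91. The classes of width were chosen after the values had been seen.

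Wide peaks with low scores stood both inside and outside the dense stretches. The peak at 1513729 to 1514642 was 914 bp wide with a score of 11.54, higher than only 0.746% of the 268 major-arm peaks within 10% of its width. The peak at 1456908 to 1457777 was 870 bp wide with a score of 11.45 and stood at percentile 2.12 of its 283 peaks of like width. The peak at 1530455 to 1531175, outside both dense stretches, was 721 bp wide with a score of 11.06 and stood at percentile 1.81. In contrast, the strongest peak stood at percentile 72.8 of peaks of like width, and the narrow peak at 1537685 to 1537945, 261 bp wide with a score of 14.85, stood at percentile 88.4, the highest of the region.

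**Figure D3:**
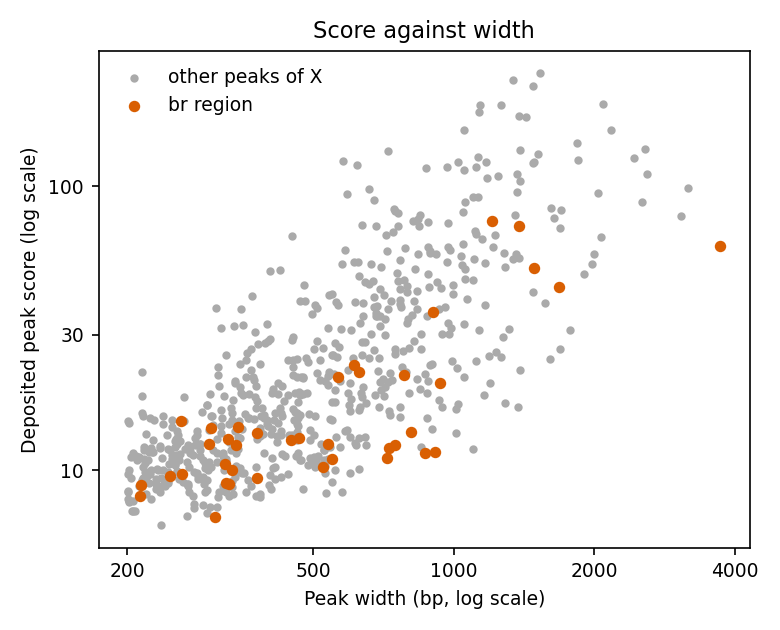
Deposited score against peak width on X, both on log scales, for the 39 peaks of the br region (orange) and the other 633 peaks (grey). Between 500 and 1000 bp most orange points lie at the lower edge of the grey cloud.

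Ranked in this way, the 38 peaks of the region that have peaks of like width had a median percentile of 31.5, and 29 of the 38 (76.3%, exact 95% binomial interval 59.8 to 88.6%) lay below percentile 50. Of the other peaks of X, 44.1% lay below it. Neighbouring peaks are not independent, so the interval is too narrow by an unknown amount, and the difference was not tested. The widest peak has no other peak within 10% of its width and was left out. The low rank was shared by the first run (median percentile 29.5 over 18 peaks) and the second (32.0 over the 14 that could be ranked). Among the 53 other windows of X with 5 or more peaks, the median percentile was higher than that of the region in 48 and lower in 5. The fullest windows of 3R, 3L, 2R and 2L stood at 52.6, 46.5, 38.7 and 37.3.

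Across windows, peak number and score for width hardly moved together. Over the 53 other windows of X with 5 or more peaks, peak number and median percentile had a Spearman correlation of -0.01, and over the 340 such windows of the 5 major arms it was -0.11. These are descriptions over windows that share the same libraries and the same peak call. None of these windows held more than 25 peaks (12 on X), so the correlations do not reach the 39 of the region. The 81 other windows of the 5 major arms with 10 or more peaks had a median of 46.4 over their median percentiles. The 8 of them on X had a median of 53.7, and 2 of the 8 were lower than the br region: 2110001 to 2220000 at 27.1 and 1780001 to 1890000 at 30.3. The fullest other window of X, 12560001 to 12670000, stood at 63.9.

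**Figure D4:**
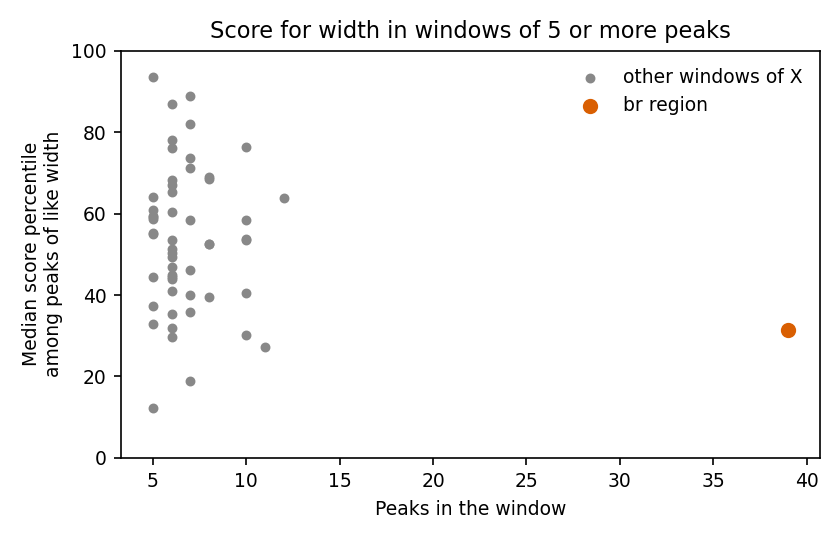
Median percentile of score among peaks of like width against peaks per window, for windows of X with 5 or more peaks. The br region (orange) lies at 31.5 with 39 peaks, and the other 53 windows range from 12.3 to 93.5.

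Score and width rose together within the region, with a Spearman correlation of 0.67 over 39 peaks, as against 0.78 over the other 633 peaks of X. Peaks are not replicates, and a peak caller can tie both measures together.

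Some scores of the region fall on the steps of a single background. The rate with the most matches among those searched was 66.43, where 826 of the 4389 scores of the list (18.8%) matched. At this rate 9 of the 39 scores (23.1%, exact 95% binomial interval 11.1 to 39.3%) equalled, to 2 decimals, −log10 of the Poisson probability of exceeding some whole fragment count; among the other peaks of X 17.2% did. Steps of this kind make up 3.10% of the possible values around the scores of the members. That share holds for a rate fixed in advance, whereas this rate was picked for its matches in the same list, members included. The best rate outside the close neighbourhood of 66.43 matched 330 of the 4389 scores. The shares were not tested against each other. The 9 include the strongest peak of the region, whose score of 75.69 corresponds to a count of 266, or 4.00 times the rate. The lowest of them, 8.13 at 1542941 to 1543153, corresponds to a count of 117, or 1.76 times the rate. Read in this way, the counts of these 9 peaks lay between these bounds.

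The matching scores were spread unevenly. They made up 8 of the 18 scores of the first run, 0 of the 15 of the second and 1 of the 6 farther right. In the first run they stood both on strong peaks (75.69 and 51.77) and on wide, weak ones (13.60 at 1463841 to 1464651, 811 bp wide, and 11.45 at 1456908 to 1457777). The 9 matching peaks had a median percentile for width of 19.4, and the other 29 that could be ranked had a median of 33.1. The sets were not tested against each other. The background that the caller used for the peaks whose scores do not match is not recorded, and its part in their low scores was not tested.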

How the data were processed

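The members, lists and comparisons were chosen with earlier results of these data known. The analysis started from 1 peak list, for 2 ChIP and 2 input libraries together. Its build is FlyBase release 5 and its peaks are marked as coming from MACS, per the file headers and source column. Per the submitters' processing notes, MACS2, BWA and CASAVA (1.7.0.2, 1.7.0.3) were used, with no role named. For the call's threshold, the read filters and the combination of libraries, nothing is given in the sources used here. The unit of the deposited score is not defined in the file. The deposited start and end of each peak were used as they stand.

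From these, Python 3.11.15 with pandas 2.3.3, NumPy 2.4.6 and SciPy 1.17.1 computed widths, gaps (bases between neighbouring peaks), covered bases and windows of 110 kb. Windows on X were laid from the left bound of the region, those on other arms from the first base, and only windows within the span of the peaks were kept. Peaks were assigned to windows by midpoint. Medians have 95% order-statistic intervals and shares exact Clopper-Pearson intervals. Both cover counting error between peaks only and treat neighbouring peaks as independent. The background rate was searched from 2 to 300 in steps of 0.01. A score was ranked among the peaks of 2L, 2R, 3L, 3R and X within 10% of its width, outside its own window, where at least 10 existed. Peaks named in full were the 5 highest and 3 lowest scores, the 5 widest, the 3 longest and 3 shortest gaps and those at the bounds; the other peaks named were chosen after their values were seen. Windows named were the next 3 on X and the fullest of each other major arm. The calculations were tested on simulated data. Alternatives were a stricter list, other bounds, merged peaks, overlapping windows, membership by overlap and a tolerance of 0.01. No sequence or gene model of release 5 was used here, so no peak was placed in a gene.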

Additional observations from a re-analysis of the deposited data

How the results depend on the processing

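Of 30 alternative values, 22 stayed within 1.5 times the reported count, coverage or correlation, or within the 95% interval of the reported median or share, and 8 moved outside. For the correlation this range reached 1.007, above any possible value, so the 0.84 found after merging could not count as moved. Windows every 10 kb leave the 39 peaks of the region unchanged by construction, so that value could not move either. Keeping only scores of at least 15.46 lowered the number of peaks from 39 to 11 and the coverage to 12.6%, and raised the median gap to 1670 bp, the median score to 36.10 and the median width to 935 bp; this list is cut on the score. Merging peaks less than 1 kb apart left 18 peaks with a median gap of 2403 bp and a median width of 1171 bp, by construction. Bounds 10 kb narrower or wider on each side gave 35 and 40 peaks, and membership by overlap gave 39. Among windows every 10 kb that did not overlap the region, the fullest held 15 peaks. Counting scores within 0.01 of a Poisson tail left the share at 23.1%. No paired analysis was possible because all 4 libraries are merged in the list, so leaving out a replicate could not be tried either. The depth behind each score is unknown, so its effect on the weak peaks of the region could not be measured.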

Other observations

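The place of the br region among the windows of X changed with the score required of a peak. The minimum scores tried here were chosen after the data had been seen. With a minimum of 10 the region held 30 peaks and the fullest other window of X 12, and with a minimum of 12 it held 23 against 11. With a minimum of 15 or 20 it held 11 peaks in both cases, against 10 and 7. With a minimum of 30, 40 and 50 it held 6, 5 and 4 peaks, the same numbers as the fullest other window of X laid end to end. The share of all X peaks that lay in the region fell from 5.80% without a minimum to 2.85% at 15, and was 3.67% at 50. On the other major arms, the fullest window held 23 peaks at a minimum of 10, 14 at 15, 11 at 20 and 6 at 30, 40 and 50. With a minimum of up to 20 the region thus held more peaks than any other window of X laid end to end. With a minimum of 30, 40 or 50 it was level with the fullest other one. These ranks depend on where the windows start. At 15, a shifted window of 110 kb that reaches from the peak at 12547654 (score 127.37) to 12649988 equals the region. At 30, 40 and 50 a shifted window exceeds it. That window takes in scores of 72.66, 54.19, 60.88, 52.68, 44.49, 69.84 and 88.39, from 16446863 to 16535401, a stretch that a window edge splits.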
